A study of Homo sapiens with 8 samples.

Results

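The MYC, MAX and MXD network is a set of transcription factors that share partners and DNA sites, and its genes were read here as RNA levels in 4 FT293 cell lines. The network was taken as 10 genes: MYC, MYCN, MAX, MXI1, MXD1, MXD3, MXD4, MNT, MGA and MLX. Every probe that the array design names for 1 of these genes was kept, which gave 21 probes of 50599, or 10 of 36337 gene names. FT293 cells are HEK293 human embryonic kidney cells in which the Flp recombinase places 1 tetracycline-inducible gene at a fixed genomic site. One line expressed GFP and the others expressed the GFP-tagged RNA-binding proteins HuR, TIA1 or TIAR, so the tag, the host cell and 3 days of tetracycline are common to all of them. Each line was measured as 2 replicates, REP1 and REP2, which the series describes as independent biological replicates, on 8 single-colour arrays of 1 slide. Nothing says that more than 1 clone or isogenic pool stood behind a line, so line and expressed protein cannot be told apart.

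MYC and its relative MYCN are basic helix-loop-helix leucine zipper proteins that bind DNA only as a heterodimer with MAX, at the E-box, and raise transcription of genes for growth, ribosome production and the cell cycle. MXD1, MXI1, MXD3, MXD4 and MNT compete for MAX, bind the same sites and recruit SIN3 corepressors, so the balance between MYC and these antagonists is classically linked to proliferation against growth arrest. MGA is a large MAX partner that belongs to a Polycomb-type repressor complex, and MLX is a MAX-like protein that pairs with MNT, MXD proteins and the glucose-responsive MLXIP and MLXIPL. MYC mRNA is short-lived and carries AU-rich elements, the class of sequence that HuR, TIA1 and TIAR bind.

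The E-box itself is shown because it is the site through which the network acts and because some of its own genes carry it. The sequence CACGTG reads the same on both strands and was searched in the 250 bases before each annotated start (RefSeq, GRCh38.p14). Of all 35116 such windows, 6.34% held it. Windows were at hand for 9 of the 10 genes (14 windows, none for MYC), and 3 of the 14 windows held the motif, each once and each of a different gene. The stretches below run 5′ to 3′ on the gene's strand, with the motif in capitals.
MXD4, chr4:2262330-2262359, minus strand, motif starting 238 bases before the start: gggccgggccacCACGTGctgttgctaagc
MNT, chr17:2401236-2401265, minus strand, motif starting 193 bases before the start: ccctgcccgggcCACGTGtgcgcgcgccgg
MLX, chr17:42567038-42567067, plus strand, motif starting 50 bases before the start: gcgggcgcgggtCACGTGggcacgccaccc
These letters are a description of the windows, not evidence that a factor was bound. The windows of MYCN, MAX, MXI1, MXD1, MXD3 and MGA did not hold them.

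Values below are log2 signals relative to the 75th percentile of the same array, averaged over the spots of a probe, and can be set against each other only within a probe. A probe counted as well above background where more than 50% of its spots carried the scanner software's flag for it. A probe was tested in a comparison when 1 line or the other had it well above background on each of its replicates. A probe was called changed at a difference of at least 2-fold with limma and an adjusted p under 0.05 (Benjamini-Hochberg over all probes tested). Between 53.2% and 58.5% of all probes were well above background on 7 arrays but 86% on GFP replicate 1, where the mean local background was 83.2 against 35.7 to 41.5 elsewhere, and no spot was saturated. Across all probes well above background on both replicates, 15.8% differed at least 2-fold between the GFP replicates, against 0.455% for HuR, 1.13% for TIA1 and 1.45% for TIAR. Of the network's probes, 2 differed that much between the GFP replicates, by up to 2.19 on the log2 scale, and none did in the other lines. The part of GFP replicate 1 in the comparisons with GFP was not tested.

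**Figure D1:**
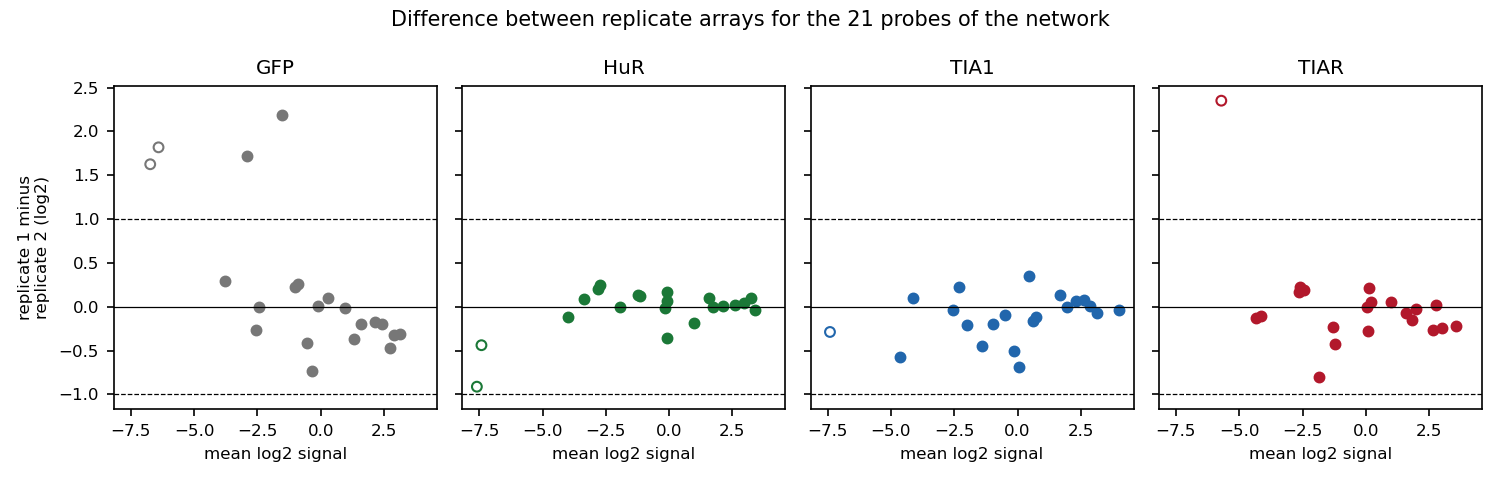
Difference between the replicate arrays of each line (replicate 1 minus replicate 2, log2) against the mean log2 signal, for each of the 21 network probes. Filled points were well above background on both arrays, open points were not, and dashed lines mark 2-fold. In the GFP line 2 filled points lie above the upper line, at up to 2.19, and in the HuR, TIA1 and TIAR lines no filled point passes either line.

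The host cell was checked against genes known for HEK293. VIM, KRT8, KRT18, NEFL and PAX2 were well above background on 8 arrays and NEFM on 7. Their levels were not constant: the neurofilament gene NEFL was called lower than in HuR in TIA1 (-1.40, limma adjusted p = 0.0028) and TIAR (-1.68, adjusted p = 0.005) and NEFM in TIAR (-1.05, adjusted p = 0.0088). Genes that define other cell types were not all silent. The brightest probes of 5 such genes (PTPRC, CD3E, ALB, PECAM1 and DES) were well above background for 2 to 4 genes per array, and their summed linear level was 3 and 0.811 on the GFP arrays, 0.616 and 0.623 in HuR, 0.855 and 0.89 in TIA1 and 0.766 and 0.851 in TIAR, in units of the array's 75th percentile. PTPRC and DES were well above background on 8 arrays, ALB on 6, CD3E on 2 and PECAM1 on 1. DES averaged -0.63 in GFP, -0.98 in HuR, -0.58 in TIA1 and -0.70 in TIAR. ALB was higher in both TIA lines, at a mean of -2.87 in TIA1 and -3.07 in TIAR against -5.68 in HuR, and the part of these shifts in the results below was not tested. For the expressed proteins themselves, a TIAL1 (TIAR) probe averaged 4.93 in the TIAR line against 2.49 in HuR, and a dimmer one -3.98 against -3.59. Both TIA1 probes were lower in the TIA1 line (-0.97 and -1.10) than in HuR (0.01 and -0.58), and ELAVL1 (HuR) averaged 0.38 in the HuR line against 1.00 in GFP. Both TIA1 probes were low in the TIAR line too (-1.56 and -1.13), and the brighter TIAL1 probe averaged 1.68 in the TIA1 line. The paper reports that expressing either TIA protein depletes endogenous TIA1 and TIAR, and that expressing HuR lowers endogenous HuR. Whether the inserted genes lack the stretches these probes read was not tested. The TIA1 and ELAVL1 probes thus check neither label.

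MYC RNA was lower in both TIA lines than in HuR-expressing cells. Its main probe (A_23_P215956, GRCh37 chr8:128753268-128753327, 10 spots per array) read 2.71 and 3.04 in GFP, 3.38 and 3.41 in HuR, 2.33 and 2.26 in TIA1, and 1.73 and 1.89 in TIAR. The ranges of the 4 lines did not overlap. The order of the means was HuR at 3.39 ± 0.03, GFP at 2.88 ± 0.23, TIA1 at 2.29 ± 0.05 and TIAR at 1.81 ± 0.11 (SD, n = 2). TIA1-expressing cells held 2.15-fold less MYC RNA than HuR-expressing cells (log2 difference -1.10, SE 0.09, 95% confidence interval -1.35 to -0.85, limma adjusted p = 0.0037), and TIAR-expressing cells held 3-fold less (-1.59, SE 0.11, -1.87 to -1.30, adjusted p = 0.005). The TIAR call was lost without HuR replicate 1 (-1.60, limma adjusted p = 0.052) or without HuR replicate 2 (-1.57, adjusted p = 0.055), with the size of the difference kept.

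Neighbours in that order could not be separated by the test. The MYC difference was 0.52 between HuR and GFP (limma adjusted p = 0.3), -0.58 between TIA1 and GFP (adjusted p = 0.24) and -0.48 between TIAR and TIA1 (95% confidence interval -0.81 to -0.16, adjusted p = 0.11). TIAR against GFP gave -1.07 (adjusted p = 0.21), although both TIAR arrays lay below both GFP arrays. The 10 MYC spots of an array agreed closely, with an SD between 0.04 and 0.27, and 8 spots were left after outlier flags on TIA1 replicate 2 and TIAR replicate 1. A second MYC probe (A_33_P3245163, chr8:128748076-128748135, designed on another transcript entry) was not well above background on any GFP, HuR or TIA1 array and on 1 TIAR array, and was not tested in any comparison. In bulk RNA, fewer cells with the transcript and less transcript per cell cannot be told apart.

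MYCN, which is best known from neural tissue and neuroblastoma and can stand in for MYC, went the other way from MYC. Its probe (A_24_P94402, chr2:16086767-16086826) read -5.92 and -7.55 in GFP, -7.63 and -7.19 in HuR, -4.91 and -4.34 in TIA1, and -4.20 and -4.09 in TIAR. It was well above background on both arrays of each TIA line and on no GFP or HuR array, so it entered the test only through the TIA lines. Only a lower bound can be given, and it holds for the signals as processed here and not for other processing. That bound sets the bright line's mean against, on each dim array, the lowest signal of any probe well above background or the probe's own value if higher. On these signals MYCN was at least 2.63-fold higher in TIA1 than in HuR and at least 3.68-fold higher in TIAR than in HuR. The limma adjusted p-values of 0.0044 and 0.004 belong to the fitted differences of 2.79 and 3.27, not to the bounds. Those fits use HuR signals that were not well above background. Against GFP, MYCN was at least 2.05-fold higher in TIA1 and at least 2.86-fold higher in TIAR. The fitted differences from GFP had limma adjusted p-values of 0.19 and 0.22. TIA1 and TIAR were 0.48 apart (limma adjusted p = 0.28), their arrays did not overlap, and HuR against GFP was not tested. The call held with normexp alone or quantile normalization alone (fitted differences from 1.13 to 2.73) but not with both. With normexp and quantile normalization together the fitted difference fell to 0.80 in TIA1 and 0.86 in TIAR, and in the authors' values to 0.85 and 0.75, each under 2-fold with limma adjusted p-values between 0.0027 and 0.012. These differences lay below the bounds against HuR, as did the difference of 1.13 in TIA1 with normexp alone.

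**Figure D2:**
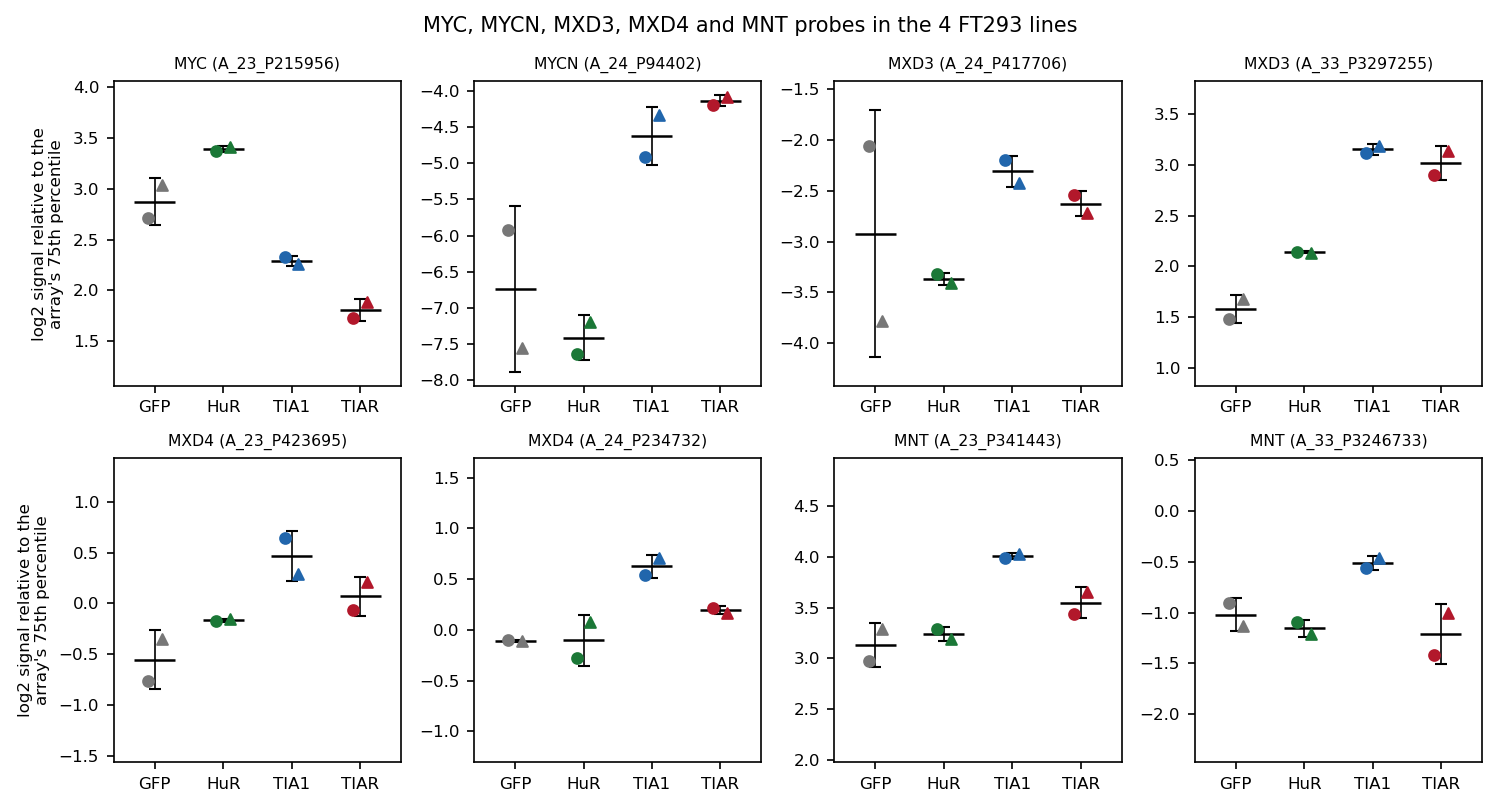
Log2 signal relative to the array's 75th percentile for 8 probes of MYC, MYCN, MXD3, MXD4 and MNT in the GFP, HuR, TIA1 and TIAR lines (circle, replicate 1; triangle, replicate 2; bar, mean; whisker, SD of 2 arrays). Panels differ in level but each spans at least 3 log2 units. MYC is highest in HuR and lowest in TIAR, MYCN and MXD3 probe A_33_P3297255 are higher on all 4 TIA1 and TIAR arrays than on all 4 GFP and HuR arrays, and MXD3 probe A_24_P417706 is split between the GFP arrays.

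MXD3, an antagonist of MYC that is expressed in cycling cells, was higher in TIA1-expressing than in HuR-expressing cells. The brighter probe (A_33_P3297255, chr5:176734216-176734275) read 1.48 and 1.68 in GFP, 2.15 and 2.14 in HuR, 3.12 and 3.19 in TIA1, and 2.90 and 3.14 in TIAR. All 4 arrays of the TIA lines lay above all 4 arrays of the control lines. The difference was 1.01 for TIA1 versus HuR (2.02-fold, SE 0.09, limma adjusted p = 0.0042) and 0.88 for TIAR versus HuR (1.84-fold, SE 0.12, adjusted p = 0.014), which lies under the 2-fold minimum. Without HuR replicate 1 or 2 the TIAR difference was 0.88 and 0.87 (adjusted p = 0.098 and 0.11). Against GFP the differences were larger but less certain, at 1.57 for TIA1 (95% confidence interval 1.03 to 2.12, limma adjusted p = 0.096) and 1.44 for TIAR (0.84 to 2.04, adjusted p = 0.18), and HuR exceeded GFP by 0.56 (adjusted p = 0.25).

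The other MXD3 probe (A_24_P417706, chr5:176732666-176732725), designed on a different transcript of the gene, read -2.06 and -3.78 in GFP, -3.32 and -3.41 in HuR, -2.20 and -2.42 in TIA1, and -2.54 and -2.71 in TIAR. GFP replicate 1 was the highest of the 8 arrays and GFP replicate 2 the lowest. Relative to HuR the probe moved like the brighter one, by 1.06 in TIA1 (SE 0.12, limma adjusted p = 0.0062) and 0.74 in TIAR (SE 0.11, adjusted p = 0.016). Both MXD3 calls for TIA1 versus HuR sat at the 2-fold minimum. The dimmer probe kept its call in 4 of 13 alternative analyses, and the brighter one fell to 0.98 (adjusted p = 0.011) without TIA1 replicate 2.

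MXD4 and MNT, antagonists that are typical of resting cells and of most cells respectively, were also higher in TIA1-expressing cells, with differences under 2-fold. The first MXD4 probe (A_23_P423695) read -0.76 and -0.35 in GFP, -0.18 and -0.16 in HuR, 0.64 and 0.29 in TIA1, and -0.07 and 0.21 in TIAR. It differed by 0.63 for TIA1 versus HuR (1.55-fold, SE 0.15, limma adjusted p = 0.033) and by 0.24 for TIAR versus HuR (adjusted p = 0.23). The second MXD4 probe (A_24_P234732) gave 0.73 (1.65-fold, SE 0.16, adjusted p = 0.028) and 0.29 (adjusted p = 0.21). The TIA1 arrays of both MXD4 probes lay above every array of the other 3 lines.

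For MNT, the probe A_23_P341443 (chr17:2287576-2287635) read 2.98 and 3.29 in GFP, 3.29 and 3.19 in HuR, 3.99 and 4.03 in TIA1, and 3.44 and 3.66 in TIAR. TIA1 was thus highest, TIAR lay between it and the control lines, and HuR and GFP overlapped. The difference was 0.77 for TIA1 versus HuR (1.7-fold, SE 0.10, limma adjusted p = 0.0075) and 0.31 for TIAR versus HuR (adjusted p = 0.13). The probe A_33_P3246733 (chr17:2289632-2289691) read -0.91 and -1.14 in GFP, -1.09 and -1.21 in HuR, -0.56 and -0.46 in TIA1, and -1.42 and -0.999 in TIAR. It gave 0.64 for TIA1 versus HuR (SE 0.10, limma adjusted p = 0.013) and -0.06 for TIAR versus HuR (95% confidence interval -0.54 to 0.42, adjusted p = 0.83). The direct comparison of TIAR with TIA1 gave -0.46 and -0.70 for these MNT probes (adjusted p = 0.13 and 0.11), so a difference between the TIA lines did not pass the test. Without HuR replicate 1 or HuR replicate 2 none of the 4 MXD4 and MNT probes passed the test in TIA1 versus HuR (differences from 0.55 to 0.90, limma adjusted p from 0.059 to 0.15). MNT and MXD4, with an E-box in the window shown above, both passed the adjusted p in TIA1 versus HuR. So did MXD3 and the MXD1 probe A_23_P408094, whose windows held none. MYCN, also without one, passed too but had entered the test only through the TIA lines. MLX, with an E-box, did not pass, nor did MAX, MXI1 and MGA, without one.

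MXD1, the antagonist associated with differentiation, gave different answers from its probes. The probe A_23_P408094 spans a splice junction, since its 60 bases lie over 777 bases of chromosome 2 (chr2:70142526-70143302, plus strand, GRCh37). Its sequence is printed because it reads the coding RNA and differs in position from the other probe.
MXD1 A_23_P408094: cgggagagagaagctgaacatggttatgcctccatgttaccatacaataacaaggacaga
This probe read -0.43 and -2.61 in GFP, -2.70 and -2.91 in HuR, -2.10 and -1.89 in TIA1, and -2.35 and -2.54 in TIAR. It differed by 0.81 for TIA1 versus HuR (1.75-fold, SE 0.13, limma adjusted p = 0.014) and by 0.36 for TIAR versus HuR (adjusted p = 0.11). GFP replicate 1 stood 2.19 above GFP replicate 2. The TIA1 difference missed the threshold without HuR replicate 1 (0.91, adjusted p = 0.063) or HuR replicate 2 (0.70, adjusted p = 0.095). The probe A_24_P379750 (chr2:70169884-70169943) gave -0.07 (95% confidence interval -0.62 to 0.48, limma adjusted p = 0.79) and 0.21 (-0.14 to 0.56, adjusted p = 0.28) in the same comparisons, so the rise seen with the junction probe was not seen there.

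MXI1, the remaining antagonist of the MXD family, did not pass the test in any comparison. Its 3 probes differed from HuR by 0.09, 0.21 and 0.13 in TIA1 and by 0.003, 0.16 and 0.15 in TIAR, with 95% confidence intervals that together ran from -0.55 to 0.81 and from -0.27 to 0.56 (limma adjusted p from 0.23 to 0.7 and from 0.29 to 0.98).

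MAX, the obligate partner, also did not pass the test. The probe A_23_P151662 (chr14:65560459-65560518, minus strand, GRCh37) lies in the coding stretch for the basic region, with which MAX contacts the E-box, and is shown for that reason.
MAX A_23_P151662: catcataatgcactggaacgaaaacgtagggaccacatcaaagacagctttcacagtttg
It read -0.78 and -1.04 in GFP, -1.18 and -1.31 in HuR, -1.08 and -0.89 in TIA1, and -1.40 and -1.17 in TIAR. The difference from HuR was 0.26 in TIA1 (95% confidence interval -0.06 to 0.58, limma adjusted p = 0.15) and -0.05 in TIAR (-0.40 to 0.30, adjusted p = 0.81). The probes A_23_P205549 and A_23_P436138 gave -0.10 and -0.15 in TIA1 (adjusted p = 0.41 and 0.28) and -0.20 and -0.34 in TIAR (adjusted p = 0.17 and 0.082). Each MAX interval against HuR thus lay inside 2-fold on either side.

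MGA and MLX complete the network. The MGA probe A_23_P37654 differed from HuR by 0.22 in TIA1 (limma adjusted p = 0.12) and 0.27 in TIAR (adjusted p = 0.094), and the probe A_33_P3330323 by 0.55 (95% confidence interval 0.07 to 1.03, adjusted p = 0.07) and 0.11 (-0.68 to 0.90, adjusted p = 0.8). The MLX probes A_19_P00810045 and A_23_P164148 gave -0.27 (adjusted p = 0.13) and 0.001 (adjusted p = 1) in TIA1, and -0.02 (adjusted p = 0.9) and 0.02 (adjusted p = 0.91) in TIAR.

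**Figure D3:**
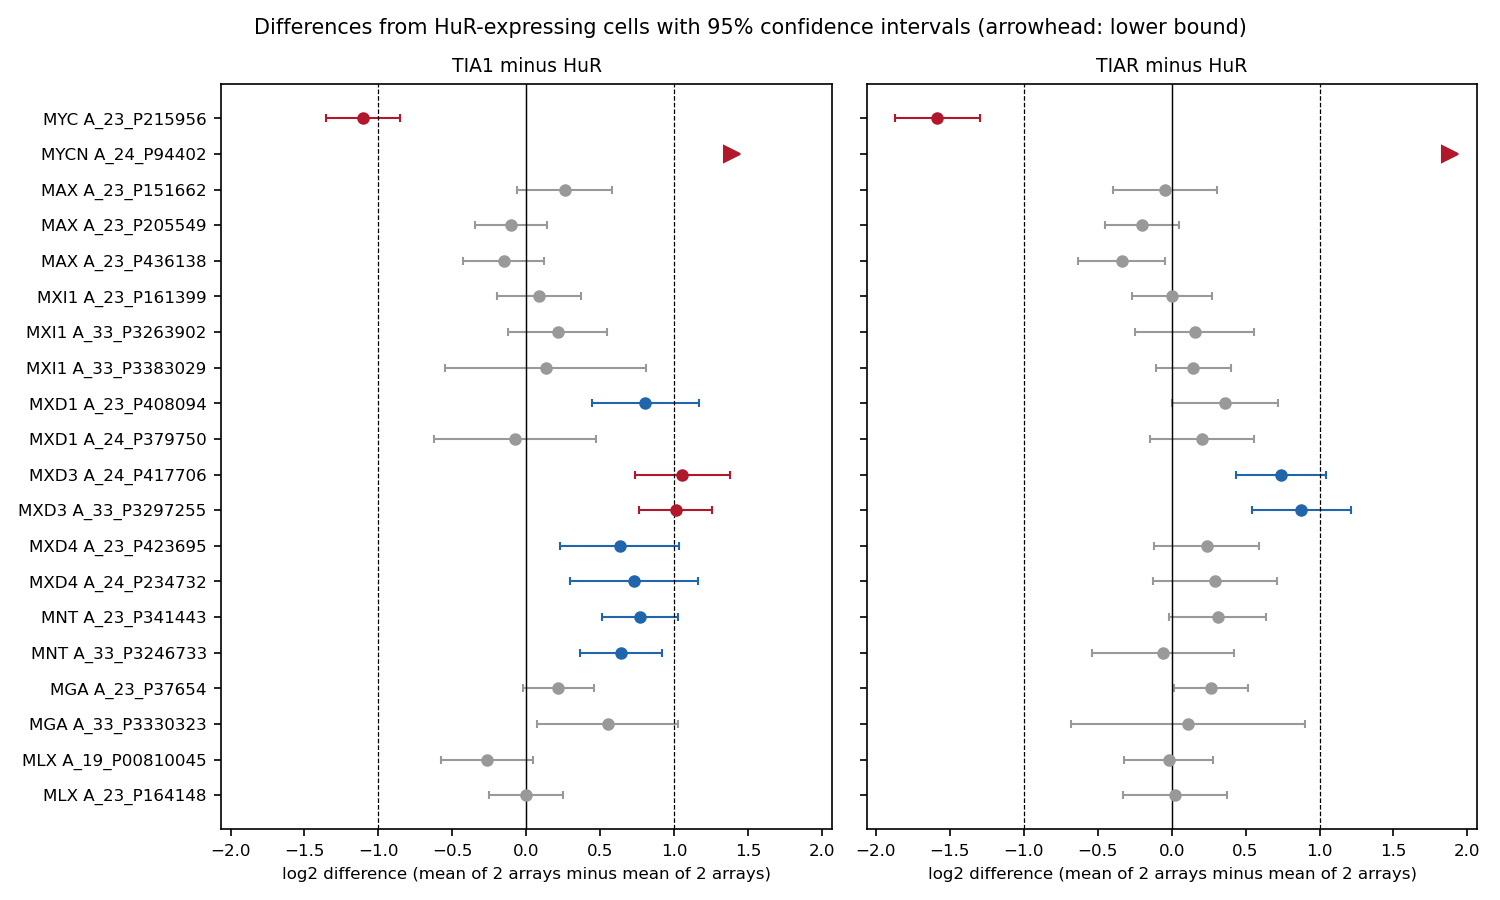
Log2 difference of TIA1-expressing (left) and TIAR-expressing (right) cells from HuR-expressing cells for the 20 tested probes, with 95% confidence intervals. Red, at least 2-fold with adjusted p under 0.05; blue, adjusted p under 0.05 alone; grey, neither; dashed lines mark 2-fold; the arrowheads for MYCN start from the lower bounds of 2.63-fold and 3.68-fold. MYC lies to the left at -1.10 and -1.59, and the MXD3, MXD4 and MNT probes are coloured in the TIA1 panel whereas the MXD4 and MNT probes are grey in the TIAR panel.

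Counted over the network, 20 of the 21 probes were tested against HuR. MYCN was among them only through its signal in the TIA lines. In TIA1 versus HuR, 3 probes were called higher (MYCN and both of MXD3) and 1 lower (MYC), where 8.5% and 4.9% of all 28739 probes tested were called. With the adjusted p alone, 9 of 20 passed, 8 of them higher, against 41.5% of all probes. In TIAR versus HuR, 1 probe was called higher (MYCN) and 1 lower (MYC), against 7.06% and 3.01% of 29096, and 4 passed the adjusted p alone, 3 of them higher, against 30.6%. Without HuR replicate 1 or 2, MXD4, MNT, MXD1 and the dimmer MXD3 probe no longer passed in TIA1, nor MXD3 and MYC in TIAR. Taken in both directions together, the shares that passed the adjusted p alone were thus near the background in TIA1 and below it in TIAR. The 8 higher probes in TIA1 and the 3 in TIAR have no share of all probes in that direction beside them. Of all genes, read by 1 probe each, 24.2% passed higher and 17.3% lower in TIA1. In TIAR 18.6% passed higher and 12.2% lower. The median difference of the network's probes was 0.24 and 0.15, where that of all probes was 0.08 and 0.05.

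TIAR versus TIA1 gave no call among the network's probes, where 1.24% of 28059 probes were called higher, 1.1% lower and 3.48% passed the adjusted p alone. By limma, 5 of the 20 had an unadjusted p under 0.05, as had 23.8% of all probes, and by the methods' paired t-test 2 had. In the comparisons of TIA1, TIAR and HuR with GFP, 0% of all probes were called in either direction or passed the adjusted p alone, so the absence of a call there says nothing about the network. An unadjusted limma p under 0.05 was found for 6, 3 and 2 of the network's probes and for 21.7%, 16.4% and 17.2% of all probes. The methods' paired t-test gave 1, 2 and 2 of the network's probes with an unadjusted p under 0.05. No share of all probes stands beside these counts or the 2 in TIAR versus TIA1, so nothing is read from them. When all 8 arrays were fitted together, 3 probes were called in TIA1 versus GFP (MYCN, MXD3 A_33_P3297255 and MXD4 A_23_P423695, all higher; 9.05% of all probes) and 3 in TIAR versus GFP (MYC lower at -1.07 with limma adjusted p = 0.016, MYCN and MXD3 A_33_P3297255 higher; 5.95% of all probes). MYCN was among the calls against GFP only through its signal in the TIA lines, since no GFP array had it well above background. The comparisons share arrays, HuR or GFP, and are not independent of each other.

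The genes around the network were taken as lists, each gene read by its tested probe of highest mean signal. Of all genes tested, 8.47% were called higher and 4.72% lower in TIA1 versus HuR, and 7.38% and 2.83% in TIAR versus HuR. The other family members MYCL, MLXIP and MLXIPL gave no call against HuR. Of the 6 corepressors that MXD proteins and MNT recruit, none was called in TIA1 or in TIAR. Among 10 cofactors of MYC only RUVBL1, an ATPase of chromatin remodelling complexes, was called, and it was lower, at -1.41 in TIA1 (limma adjusted p = 0.0037) and -1.02 in TIAR (adjusted p = 0.012). None of 9 partners of MGA in its Polycomb-type complex was called. Of 9 tested regulators of MYC protein stability, PIM1, a kinase that stabilises MYC, was called higher in TIAR (1.85, adjusted p = 0.0038), gave 0.82 in TIA1 (adjusted p = 0.0062, under 2-fold) and was higher in TIAR than in TIA1 (1.02, adjusted p = 0.032, a comparison in which no probe of the array was called without TIAR replicate 1). Without HuR replicate 1 or 2, RUVBL1 missed the test in TIAR (adjusted p = 0.071 and 0.093) and PIM1 in TIA1 (0.061 in both cases). With the adjusted p alone, 4 of these 9 regulators were lower in TIA1 (HUWE1 -0.89, PPP2R5A -0.74, USP28 -0.69 and SKP2 -0.55) and 2 higher (PIM1 and FBXW7, 0.46), against 17.3% and 24.2% of all genes. In TIAR 2 were lower (SKP2 -0.81 and HUWE1 -0.71) and 2 higher (PIM1 and AURKA, 0.49), against 12.2% and 18.6%. These genes other than PIM1 were named after their values were seen.

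Textbook targets that MYC activates elsewhere were read with 33 genes, chiefly of ribosome production, metabolism and the cell cycle. In each comparison with HuR 1 was called lower, CCND2 (cyclin D2; -1.20 in TIA1 with limma adjusted p = 0.0033, -1.21 in TIAR with adjusted p = 0.0072), and 1 higher, E2F2, an S-phase transcription factor (1.18, adjusted p = 0.0047, and 1.11, adjusted p = 0.0093). Against GFP, CCND2 did not differ in that direction: it read 2.07 and 2.37 in GFP and 3.78 and 3.71 in HuR, against 2.44 to 2.63 on the TIA1 and TIAR arrays, which gave 0.33 for TIA1 versus GFP (adjusted p = 0.42) and 0.32 for TIAR versus GFP (adjusted p = 0.52). With the adjusted p alone, 15 of the 33 were lower and 1 higher in TIA1, against 17.3% and 24.2% of all 21238 genes, and 10 were lower and 1 higher in TIAR, against 12.2% and 18.6% of all 21523. The list's median difference was -0.38 in TIA1 and -0.26 in TIAR, where the medians of all genes were 0.08 and 0.06. Other genes of the list that were lower by the adjusted p, chosen after their values were seen, include the polyamine enzymes SRM (-0.82 in TIA1, -0.67 in TIAR) and ODC1 (-0.61 and -0.76), the nucleolar protein NOP16 (-0.74 and -0.85) and the lactate dehydrogenase LDHA (-0.68 in both lines). These changes stayed under 2-fold. Against GFP, ODC1 gave -0.05 in TIA1 and -0.20 in TIAR, and NOP16 gave 0.09 and -0.01. HuR exceeded GFP by 0.56 for ODC1 and 0.83 for NOP16. SRM gave -0.43 and -0.28 against GFP, and LDHA -0.57 in both TIA lines. The list's median was -0.14 in TIA1 and in TIAR versus GFP, and 0.17 in HuR versus GFP. The list's counts by the adjusted p rested on both HuR arrays. When either was left out, nearly all of its passing genes no longer passed, in TIA1 and in TIAR. Calls over the whole array, at 2-fold and adjusted p, fell too in TIAR versus HuR, as given in the last section. In TIA1 versus HuR they fell far less. Without HuR replicate 1 or 2, CCND2 (-1.17 and -1.25) and E2F2 (1.015 and 1.195) kept their size in TIAR but no longer passed. The list's median then kept its sign, at -0.39 and -0.32 in TIA1 and -0.29 and -0.28 in TIAR. In the authors' values CCND2 fell to -0.88 in TIAR, and the list's TIAR median was -0.08, with 8 genes lower and 5 higher.

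Of 9 textbook targets that MYC represses, NDRG1, a stress-responsive gene, was called lower in TIAR (-1.29, limma adjusted p = 0.0063), against the direction of the list's name, and gave -0.88 in TIA1 (adjusted p = 0.014, under 2-fold). By the adjusted p alone 5 were higher in TIA1 and 3 in TIAR, where 24.2% and 18.6% of all genes were. In TIA1 these were the cyclin-dependent kinase inhibitors CDKN1A (0.88), CDKN1B (0.75), CDKN2B (0.90) and CDKN2C (0.56) and the matrix protein gene THBS1 (0.48). In TIAR they were CDKN1B (0.60), CDKN2B (0.58) and NDRG2 (0.66). The genes of this paragraph other than NDRG1 were named after their values were seen. The list's median was 0.48 in TIA1 and 0.24 in TIAR. This list's counts also rested on both HuR arrays and fell when either was left out, as calls over the whole array did in TIAR versus HuR. Without HuR replicate 1 or 2, NDRG1 kept its size in TIAR (-1.27 and -1.31) but no longer passed. The list's median was then 0.56 and 0.37 in TIA1 and 0.19 and 0.26 in TIAR. With normexp and quantile normalization together 2 genes of the list were higher in each line by the adjusted p. The list's TIA1 median was then 0.21, and it was 0.255 with quantile normalization alone and in the authors' values. Against GFP, CDKN2B gave -1.52 in TIA1 and -1.84 in TIAR (SE 1.99 and 2.02), and THBS1 -0.06 and -0.17. CDKN1A, CDKN1B, CDKN2C and NDRG2 gave positive differences from GFP in both lines. In the 3 comparisons with GFP no gene of these lists was called, as no probe of the array was.

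**Figure D4:**
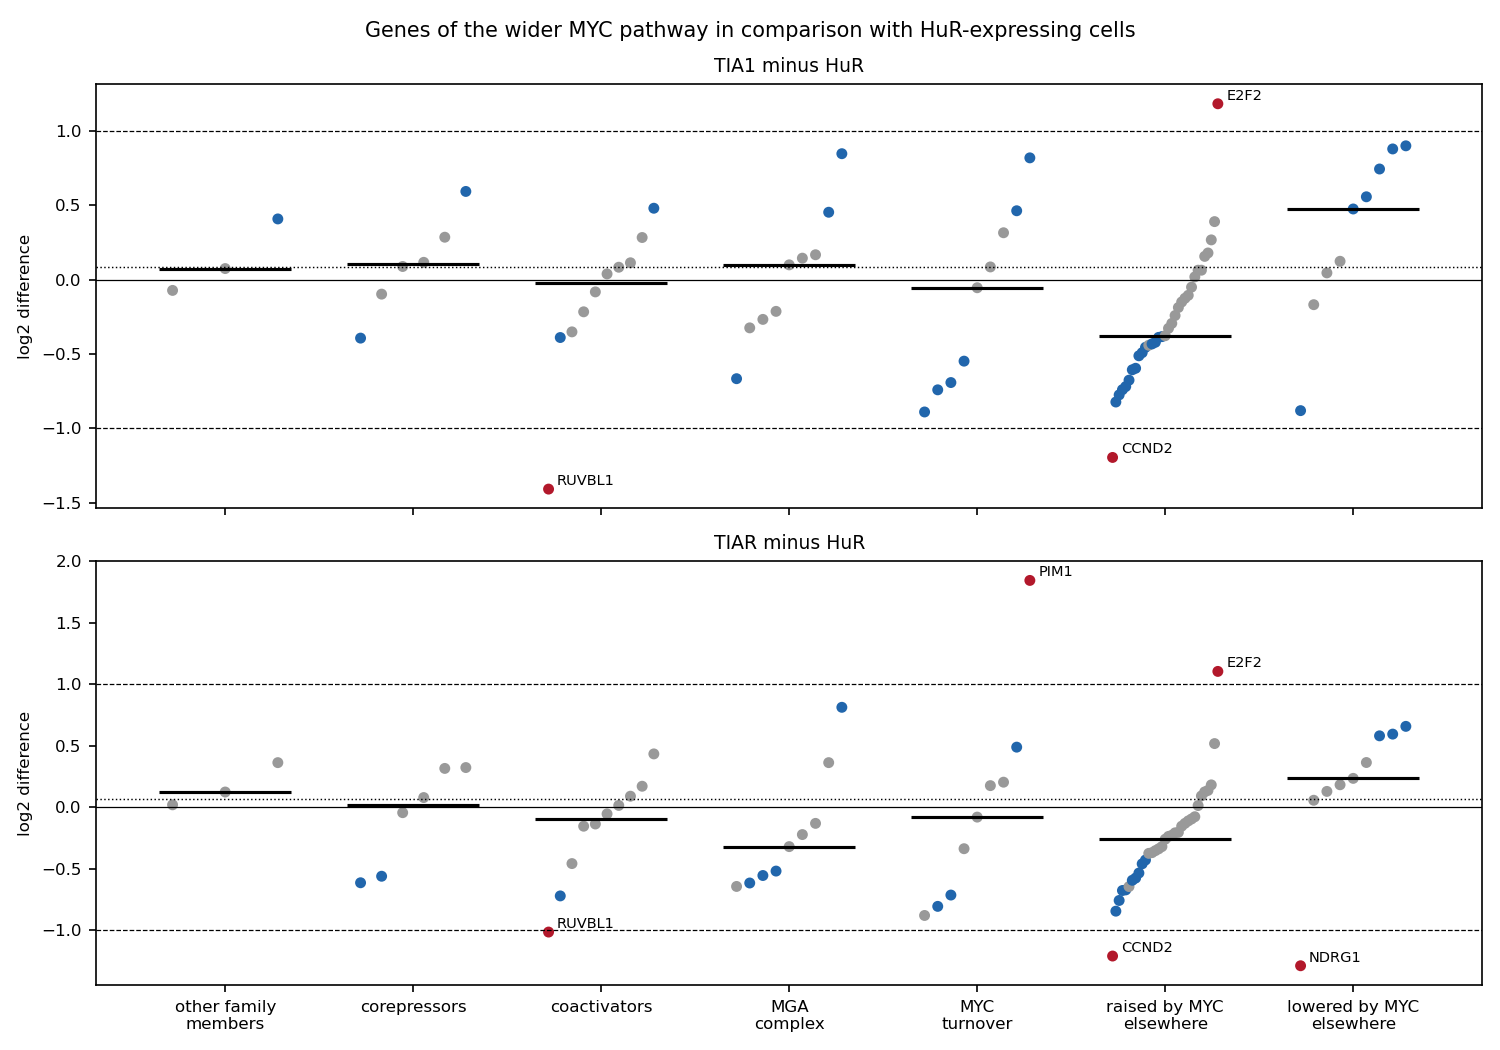
Log2 difference from HuR-expressing cells for each tested gene of 7 lists around the network, in TIA1-expressing (top) and TIAR-expressing (bottom) cells. Red, at least 2-fold with adjusted p under 0.05; blue, adjusted p under 0.05 alone; grey, neither; thick bars, list medians; dotted line, median of all genes; dashed lines, 2-fold. The list raised by MYC elsewhere sits below the dotted line, with medians of -0.38 and -0.26, and the list lowered by MYC elsewhere above it, with 0.48 and 0.24.

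Genes whose levels followed MYC closely were ZNRD1 (Pearson r = 0.993), ZNF544 (0.992), ELOVL6 (0.992) and DCDC2 (0.989), over 8 arrays and among 24954 probes well above background on all of them. Among the network's own probes, both of MXD3 ran against MYC (r = -0.717 and -0.646). The MYCN coefficient (-0.956) includes 4 arrays on which MYCN was not well above background. These coefficients are descriptions over 8 arrays that fall into 4 lines of 2, so they mostly reflect the order of the lines.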

How the data were processed

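RNA of the 8 samples was hybridised in 1 colour (Cy3) to Agilent SurePrint G3 8x60K v2 arrays. The authors deposited scanner output of Feature Extraction 10.7.3.1, whose processed signal is a background-subtracted intensity per spot, and a table of their own processed log2 values, deposited with centring unstated (column medians 7.36 to 7.51; Pearson r with the scanner values 0.944 to 0.979). That table served as an alternative. Groups came from the sample titles. For TIA1 replicate 2 the source name reads GFP-TIA2, whereas its title gives TIA1.

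Control spots and outlier spots were left out, log2 intensity was taken minus each array's 75th percentile, and each probe took the mean of its remaining spots. limma 3.58.1 in R 4.3.3 was fitted on the 4 arrays of each of 6 pairs of lines, a scheme tested on simulated data. Probe positions are those of the array files (GRCh37). Exon and UTR annotation of that build was not used here. RefSeq promoter windows are of GRCh38.p14.

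The network genes and the gene lists were chosen with earlier results of these data known. All network probes are named, plus up to 3 genes per list and direction among those called against HuR, and genes among the 5 most like MYC. Further list genes named after their values were seen are marked as such. Some genes that these rules cover are not reported here. Alternatives covered background correction, normalization, the filter on dim probes, all arrays in one fit, a replicate block, the methods' t-test (paired) and leaving out each array. The number of arrays limits the precision.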

Additional observations from a re-analysis of the deposited data

How the results depend on the processing

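The network's calls were recomputed with 13 alternatives per comparison, and no probe reversed a called difference. For TIA1 versus HuR the 4 calls became 2 with normexp and quantile normalization together, 2 in the authors' values and 0 by the methods' paired t-test, and 3 without any 1 of the 4 arrays. For TIAR versus HuR the 2 calls became 1 with normexp and quantile normalization, 1 when probes had to be well above background on all 4 arrays, 0 by the paired t-test, and 1 to 2 when an array was left out, with 1 without HuR replicate 1 or HuR replicate 2. TIAR versus TIA1 stayed at 0. The paired t-test called 0 of all probes in each comparison, so its 0 says nothing about the network. Against GFP, where the count was 0, fitting all 8 arrays gave 3 calls for TIA1 and 3 for TIAR. Both counts include MYCN, which entered only through the TIA lines. Leaving out an array gave 0 to 6 for TIA1 (3 without GFP replicate 1, 6 without GFP replicate 2, where 11.5% and 23.5% of all probes were called), 0 to 3 for TIAR (3 without either GFP array, 6.58% and 21.2% of all probes) and 0 to 2 for HuR, where the 2 came without GFP replicate 2 (24.3%). With 1 array left in a line, that array is assumed to vary like the other line. The cause was not tested. Same-numbered replicates did not deviate together (correlation of deviations from -0.097 to 0.174), so the number does not pair them. With the replicate block, 4 probes were called for TIA1 versus HuR and 2 for TIAR versus HuR, as without it, and 0 in the other comparisons. Over all probes, 3850 were called for TIA1 versus HuR and 2929 for TIAR versus HuR, against 2203 and 1599 with normexp, 1706 and 1188 with normexp and quantile, 1688 and 1260 in the authors' values, with 753 and 626 for TIAR without HuR replicate 1 or 2. There were 658 for TIAR versus TIA1 against 286 with normexp, 0 without TIAR replicate 1 and 0 with the block. Of the called probes 63.4% and 70.1% were higher, against 52.9% and 56.2% with quantile normalization. Quantile normalization moved the median of all probes from 0.006 to 0.241 in TIA1 versus GFP. Fitting all 8 arrays called 2539, 1702 and 1144 probes for TIA1, TIAR and HuR versus GFP.
The recomputed gene lists, with the same corrections and without each array, were added after seeing the data.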
